A study of Homo sapiens with 4 samples.

Results

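The CDC45, GINS1, GINS2, GINS3, GINS4, MCM10, RECQL4, TOPBP1, WDHD1 and TIMELESS genes, which together encode factors that fire replication origins and travel with the replication fork, were followed in A549 cells with and without knockdown of the long noncoding RNA USP2-AS1. They are 10 of the 6828 genes in the deposited table, taken from it by gene name, and they were chosen on their measured difference between the groups, so that their fold changes are given below as a description and without a test. A549 is a human lung adenocarcinoma cell line. The cells were infected with lentiviruses that carried a control shRNA (shctrl) or an shRNA against USP2-AS1 (shUSP2-AS1), both driven from the PLKO.1 vector, and RNA was taken 72 h later from 2 biological replicates of each group. The groups differ in this shRNA, and the sources used here do not say which of the hairpins against USP2-AS1 the name sh216, given to the knockdown in the deposited table, stands for. The comparison asks which genes USP2-AS1 regulates.

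Before S phase, rings of the MCM2 to MCM7 proteins are loaded on DNA as an inactive helicase, a step called licensing. An origin fires when kinases and scaffold proteins bring CDC45 and the GINS complex onto that ring, which makes the active CMG helicase (CDC45, MCM, GINS). MCM10 then sets the helicase in motion, and WDHD1 (AND-1) and TIMELESS join it in the moving replisome. These genes are mostly transcribed at the entry into S phase, in part by E2F transcription factors, and dividing tumour cells express them strongly.

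The values are read counts per gene that the authors divided by a size factor of each library. The table lists genes with an adjusted p of at most 0.0499 in the authors' comparison, so a gene that did not pass it has no value here. The reads that fell on the listed genes numbered between 10772788 and 14120472 per library, and neither group had both of the deeper libraries. USP2-AS1 itself (ENSG00000245248) had 24 and 22 reads in shctrl and 2 and 7 reads in shUSP2-AS1, so the targeted RNA was low in both knockdown libraries. Of 6 epithelial markers, the keratins KRT8, KRT18, KRT19 and KRT7 were listed. KRT8 had 83641 ± 5464 (SD, n = 2) normalized reads with the control shRNA and 49098 ± 1242 (SD, n = 2) with knockdown. KRT18 (log2 fold change -1.05) was called lower, KRT8 (-0.77) and KRT7 (-0.49) had smaller values of the same sign and KRT19 (0.75) had the opposite one, while EPCAM and CDH1 were not among the listed genes. Of 8 markers of blood, endothelial and stromal cells, COL1A1 was the only one listed, with 261 and 293 normalized reads in shctrl and 530 and 618 in shUSP2-AS1, and its part in the results below was not tested. RNA came from whole cultures, where fewer cells that express a gene and less of its RNA per cell cannot be told apart.

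All 10 genes had lower values in both shUSP2-AS1 libraries than in either shctrl library. The listed genes had already passed a comparison of these groups. With no fold threshold, 3362 of the 6812 genes tested were called lower and 3449 higher. The share of them whose groups do not overlap was not counted, so nothing is read from this separation. The share of the shctrl mean that was left ranged from 10.8% for WDHD1 to 49.1% for GINS3. All 10 met the call used here, a limma adjusted p below 0.05 and a log2 fold change at or below -1, which 922 of the 6812 genes tested met (13.5%). As the genes were chosen on this contrast, nothing is read from that count. The median of their log2 fold changes was -2.10, beside 0.19 over all genes tested.

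**Figure D1:**
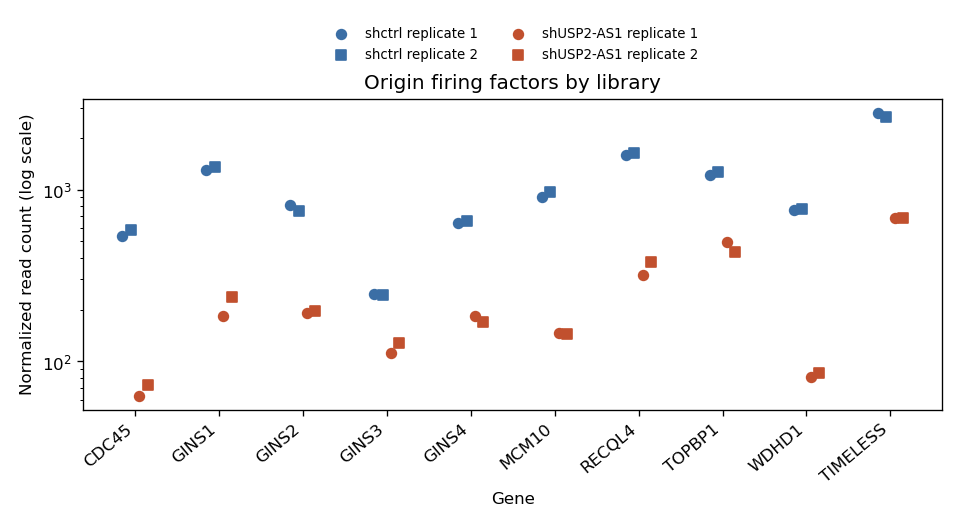
Normalized read counts (log axis) of the 10 genes in each library, shctrl in blue and shUSP2-AS1 in red, with circles for replicate 1 and squares for replicate 2. The groups do not overlap for any of these genes, which was not compared with the other listed genes. The gap is widest for WDHD1 and narrowest for GINS3.

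Of these genes, 4 carry, near a start site annotated by RefSeq, a word that E2F factors are known to bind, and these stretches are shown because E2F sites are the best known control elements of origin firing genes. The words searched on both strands were TTTCCCGC, TTTGGCGC, TTTGCCGC and TTTCGCGC, in the 300 bases from 250 before to 50 after each start (GRCh38), and 8 of the 10 genes had such a promoter. In the lines below, 5′ to 3′ on the strand of the gene, capitals mark the word as it reads on that strand.

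TOPBP1: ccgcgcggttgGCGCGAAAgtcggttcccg

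GINS3: cgtccccgggcGCGGGAAAcgagtttcaat

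GINS2: ctctcgccgtgGCGGGAAAacggcggccgc

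GINS1: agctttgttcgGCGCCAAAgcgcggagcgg

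The TOPBP1 stretch is chr3:133661930-133661959 on the minus strand, and its word covers bases -7 to 1 around the start. The GINS3 stretch is chr16:58392455-58392484 on the plus strand, with the word at -5 to 3. The GINS2 stretch is chr16:85688967-85688996 on the minus strand, with the word at -31 to -24. The GINS1 stretch is chr20:25407667-25407696 on the plus strand, with the word at 6 to 13. The RefSeq starts of TOPBP1, GINS2 and GINS3 lie downstream of their starts in the deposited table. For GINS3 the deposited start is base 58295080 of chromosome 16. Counted by gene, such a word stood in a promoter of 3.99% of all 27305 genes that had one. The share was 6.62% of the 5214 such genes tested and 14.5% of the 662 called lower, and 50% of the 8 genes searched here. RECQL4 and GINS4 had no promoter to search. Of the shctrl mean, 15.9% was left for GINS1, 24.7% for GINS2, 37.4% for TOPBP1 and 49.1% for GINS3, and WDHD1 and CDC45, the genes with the lowest fold changes, had no such word in this window. The CCAAT box, which NF-Y binds, was found in the promoters of MCM10, TIMELESS, GINS2, GINS1 and CDC45, or 62.5% of the 8 genes. It was in those of 39.7% of all genes, 43.9% of genes tested and 53.9% of genes called lower. The CCAAT boxes of CDC45 lie from base 19479808 to 19479880 of chromosome 22, at RefSeq starts that are downstream of its start in the deposited table. The words TTTGAA and TTCGAA of the cell cycle homology region (CHR) were in no promoter of these genes. They were in those of 15.8% of genes tested and 25.4% of genes called lower. None of the words searched contains another. A match is a description of the letters and not a measured site, and the absence of these exact words does not show that a site is absent.

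CDC45 (ENSG00000093009, plus strand, chr22:19479457-19520612, as are all positions below in GRCh38) encodes a subunit that joins the MCM ring to make the active helicase. Its normalized read count was 536 and 579 with the control shRNA and 63.1 and 73.1 with knockdown. The lower shctrl library was 7.34-fold above the higher shUSP2-AS1 library. The means were 558 ± 30.3 (SD, n = 2) and 68.1 ± 7.06 (SD, n = 2), a log2 fold change of -3.02 (standard error 0.13), and 16 of the 6812 genes had a lower one. With 60 and 83 reads in the knockdown libraries, its values there rest on the fewest reads of the set, and their difference of 15.8% is 0.867 of the standard deviation that counting alone gives.

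The 4 GINS subunits form a single complex that clamps CDC45 to the MCM ring. GINS1 (ENSG00000101003, plus strand, chr20:25407673-25452628), also called PSF1, had 1303 and 1347 normalized reads in shctrl and 184 and 238 in shUSP2-AS1. Its log2 fold change was -2.66 (standard error 0.10), the lowest of the GINS genes. Its shUSP2-AS1 libraries differed by 29.2%, which is 2.64 standard deviations of counting and the widest replicate difference in the set. GINS2 (ENSG00000131153, minus strand, chr16:85676198-85690073), or PSF2, had 818 and 751 in shctrl and 190 and 197 in shUSP2-AS1. GINS2 thus kept 24.7% of its shctrl mean, and its log2 fold change was -2.01 (standard error 0.10). It overlaps GSE1, a listed gene on the opposite strand, which had a mean of 2791 normalized reads in shctrl and 1907 in shUSP2-AS1 (log2 fold change -0.55, short of the threshold), and whether the counting used strand is not given in the sources used here.

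GINS4 (ENSG00000147536, plus strand, chr8:41529218-41545030), or SLD5, had 640 and 657 normalized reads in shctrl and 183 and 171 in shUSP2-AS1. This is a log2 fold change of -1.87 (standard error 0.10), close to that of GINS2, and the GINS2 to GINS4 ratio was 1.28 and 1.14 in shctrl and 1.04 and 1.15 in shUSP2-AS1, with overlapping groups. GINS3 (ENSG00000181938, plus strand, chr16:58295080-58406147), or PSF3, had 248 and 243 in shctrl and 113 and 129 in shUSP2-AS1. Its difference was the smallest of the 10 genes, at a log2 fold change of -1.02 (standard error 0.14, 95% confidence interval -1.32 to -0.73). It lies just inside the threshold of -1, and without shUSP2-AS1 replicate 1 the value was -0.93, outside it. GINS3 rested on 107 and 146 reads in the knockdown libraries, and those differed by 1.05 standard deviations of counting.

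The 4 subunits of the complex thus differed among themselves. The GINS1 to GINS3 ratio was 5.25 and 5.55 in shctrl and 1.64 and 1.85 in shUSP2-AS1. Of the summed normalized reads of the 4 genes, GINS1 made up 43.3% and 44.9% in shctrl and 27.5% and 32.4% in shUSP2-AS1. GINS3 made up 8.25% and 8.10% in shctrl and 16.8% and 17.5% in shUSP2-AS1, so its share was higher in both knockdown libraries, while GINS2 stayed between 25.0% and 28.4% of the sum in all 4 libraries.

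To set genes of different size side by side, normalized reads were divided by the gene length in the deposited table. Among CDC45 and the GINS genes, the highest level per kilobase in shctrl was that of GINS1 (321 ± 7.67, SD, n = 2) and the lowest that of GINS3 (48.1 ± 0.756, SD, n = 2). In shUSP2-AS1 the highest was GINS2 (60.2 ± 1.51, SD, n = 2) and the lowest CDC45 (22.9 ± 2.37, SD, n = 2), which overlapped GINS3 (23.6 ± 2.22, SD, n = 2). The highest level was 6.49 and 6.86 times the lowest in shctrl and 2.79 and 2.50 times the lowest in shUSP2-AS1. These 5 genes were therefore closer to each other in level after knockdown. With the length of the Ensembl canonical transcript in place of the deposited length, the spread was 3.49 and 3.69 times in shctrl and 2.16 and 1.93 times in shUSP2-AS1. Among MCM2 to MCM7, the ring of the same helicase, the highest level per kilobase was 3.91 and 4.13 times the lowest in shctrl and 3.72 and 3.80 times in shUSP2-AS1. By canonical length the spread of these ring genes was wider, at 5.07 and 5.35 times in shctrl and 4.62 and 4.73 times in shUSP2-AS1.

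**Figure D2:**
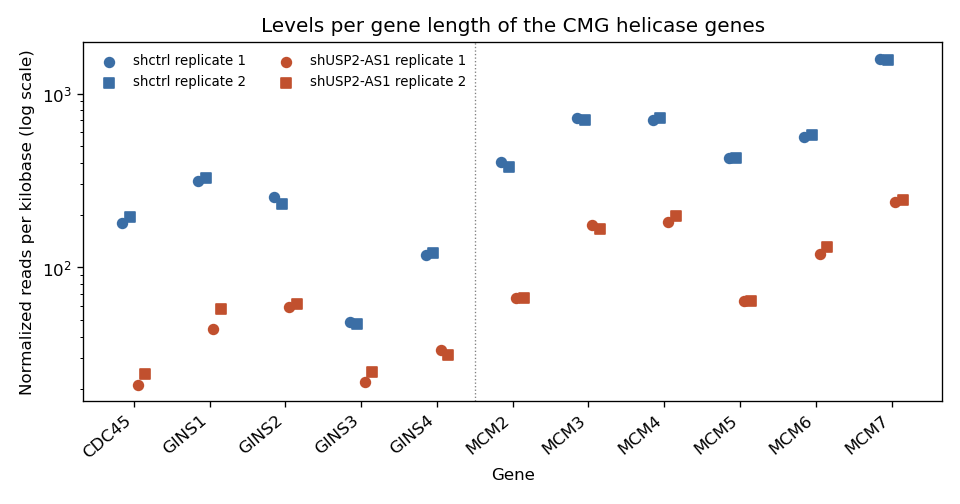
Normalized reads per kilobase of gene length (log axis) of CDC45 and GINS1 to GINS4, left of the dotted line, and of MCM2 to MCM7, right of it, in each library, with shctrl in blue, shUSP2-AS1 in red, circles for replicate 1 and squares for replicate 2. GINS1 stands highest and GINS3 lowest of the left genes in shctrl, and the 5 genes lie closer together in shUSP2-AS1, while MCM7 stays highest of the ring genes in every library.

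MCM10 (ENSG00000065328, plus strand, chr10:13161554-13211104) encodes the factor that activates the assembled helicase. It had 900 and 964 normalized reads in shctrl and 147 and 144 in shUSP2-AS1, so that the lower shctrl value was 6.11-fold above the higher knockdown value. Its log2 fold change was -2.67 (standard error 0.10), next to that of GINS1. RECQL4 (ENSG00000160957, minus strand, chr8:144511288-144517845) is a helicase of the RecQ family whose amino-terminal part resembles the yeast firing factor Sld2. It had 1580 and 1629 normalized reads in shctrl and 320 and 380 in shUSP2-AS1, and its log2 fold change was -2.20 (standard error 0.08), with replicates of shUSP2-AS1 that differed by 19.0% or 2.32 standard deviations of counting. TOPBP1 (ENSG00000163781, minus strand, chr3:133598175-133662380) is the scaffold that brings CDC45 to origins and also activates the checkpoint kinase ATR. It had 1223 and 1261 normalized reads in shctrl and 497 and 432 in shUSP2-AS1. Its log2 fold change of -1.42 (standard error 0.08) was the second closest to the threshold, and 37.4% of its shctrl mean was left. The MCM10 to TOPBP1 ratio was 0.735 and 0.765 in shctrl and 0.296 and 0.334 in shUSP2-AS1.

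WDHD1 (ENSG00000198554, minus strand, chr14:54938949-55027105) encodes AND-1, which links the helicase to DNA polymerase alpha. Its normalized read count was 760 and 775 in shctrl and 81.0 and 85.4 in shUSP2-AS1. The log2 fold change of -3.19 (standard error 0.11) was the lowest of the set, and 12 of the 6812 genes had a lower one. The WDHD1 to TOPBP1 ratio was 0.622 and 0.615 in shctrl and 0.163 and 0.198 in shUSP2-AS1, so the 2 genes did not move by the same factor. TIMELESS (ENSG00000111602, minus strand, chr12:56416363-56449426) protects the moving fork together with TIPIN. It had 2801 and 2658 normalized reads in shctrl and 687 and 682 in shUSP2-AS1, and its log2 fold change was -1.99 (standard error 0.06). Its partner TIPIN had a log2 fold change of -1.98, and the TIMELESS to TIPIN ratio was 6.73 and 6.28 in shctrl and 7.18 and 5.83 in shUSP2-AS1, with overlapping groups.

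Per kilobase of deposited length, the order from the highest level in shctrl was TIMELESS (467), RECQL4 (379), GINS1 (321), GINS2 (244), CDC45 (187), MCM10 (171), TOPBP1 (169), WDHD1 (120), GINS4 (119) and GINS3 (48.1). The libraries of MCM10 and TOPBP1 overlapped, as did those of WDHD1 and GINS4. In shUSP2-AS1 the order was TIMELESS (117), RECQL4 (82.6), TOPBP1 (63.4), GINS2 (60.2), GINS1 (51.1), GINS4 (32.5), MCM10 (26.7), GINS3 (23.6), CDC45 (22.9) and WDHD1 (13.0). There the libraries of TOPBP1 and GINS2 overlapped, as did those of GINS3 and CDC45. TIMELESS and RECQL4 led in both groups, and WDHD1 was the lowest of the set in shUSP2-AS1, both also by the mean per kilobase of canonical transcript. On that scale the shUSP2-AS1 libraries of RECQL4 (83.7 and 99.6) and TOPBP1 (86.3 and 75.0) overlapped. By that length the level of WDHD1 in shctrl was 128, below that of GINS4 (172). In shUSP2-AS1 the libraries of CDC45 (33.6 and 38.9) and GINS3 (51.1 and 58.4) then no longer overlapped, nor in shctrl did those of MCM10 and TOPBP1.

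Several of these genes begin next to a gene that is transcribed the other way, and those neighbours were not used to choose the set. A neighbour has values here only if it passed the authors' comparison of the same groups. Its small adjusted p was therefore built in and is not read as support. UFD1, a cofactor of the VCP segregase, starts 255 bases from CDC45. It had 988 and 930 normalized reads in shctrl and 728 and 755 in shUSP2-AS1, and its log2 fold change was -0.37 (standard error 0.07, limma adjusted p = 0.000108). The CDC45 to UFD1 ratio was 0.543 and 0.623 in shctrl and 0.0867 and 0.0968 in shUSP2-AS1. SOCS4, a suppressor of cytokine signalling, starts 125 bases from WDHD1. It had 763 and 818 normalized reads in shctrl and 653 and 616 in shUSP2-AS1, and its log2 fold change was -0.32 (standard error 0.08, limma adjusted p = 0.000841). The WDHD1 to SOCS4 ratio was 0.996 and 0.948 in shctrl and 0.124 and 0.139 in shUSP2-AS1, so genes of near equal counts in shctrl were far apart after knockdown. LRRC14, a leucine-rich repeat gene, starts 147 bases from RECQL4 and had a mean of 813 ± 7.56 (SD, n = 2) for shctrl and 575 ± 22.9 (SD, n = 2) for shUSP2-AS1, and its log2 fold change was -0.50 (standard error 0.08, limma adjusted p = 8.91e-06). ABHD12, a lysophospholipid hydrolase, starts 173 bases from the GINS1 start in GENCODE release 44, base 25391008 of chromosome 20. That start lies upstream of base 25407673, the GINS1 start in the deposited table, from which ABHD12 is farther than the 1 kb limit. The ABHD12 mean was 2596 ± 112 (SD, n = 2) for shctrl and 3201 ± 93.7 (SD, n = 2) for shUSP2-AS1. Its log2 fold change was 0.30 (standard error 0.05, limma adjusted p = 5.11e-05). PRSS54, beside the first annotated start of GINS3, and the noncoding gene ENSG00000291042, beside TOPBP1, were not among the listed genes. Genes beside the RefSeq start of GINS3 used above were not searched for. None of the 4 listed neighbours met the fold threshold, and the difference between a neighbour and its partner was not tested.

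**Figure D3:**
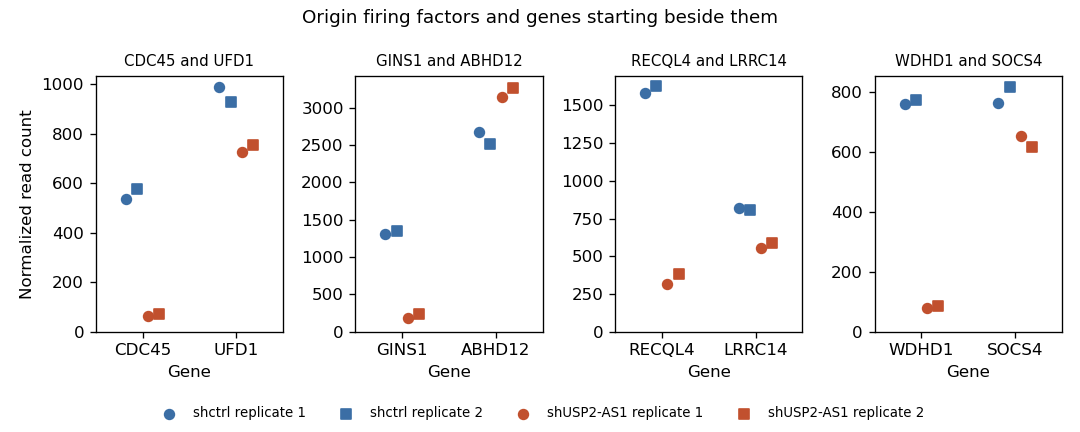
Normalized read counts (linear axes from 0, a scale of its own in each panel) of CDC45, GINS1, RECQL4 and WDHD1, each beside the gene that starts next to it on the other strand, with shctrl in blue, shUSP2-AS1 in red, circles for replicate 1 and squares for replicate 2. For GINS1 this holds for its GENCODE start only. UFD1, LRRC14 and SOCS4 lie lower and ABHD12 higher in shUSP2-AS1, all by less than the gene beside them.

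The DNA between the starts of a pair is shown for the genes with the lowest fold changes, CDC45 and WDHD1. It is written 5′ to 3′ on the strand of CDC45 and of WDHD1 and ends at the base before their start, and it has no capitals because none of the E2F, CCAAT or CHR words occurred in it. For CDC45 the start is that of the deposited table, so this is another stretch than the promoters of the RefSeq starts above, where the CCAAT boxes were found.

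CDC45 and UFD1: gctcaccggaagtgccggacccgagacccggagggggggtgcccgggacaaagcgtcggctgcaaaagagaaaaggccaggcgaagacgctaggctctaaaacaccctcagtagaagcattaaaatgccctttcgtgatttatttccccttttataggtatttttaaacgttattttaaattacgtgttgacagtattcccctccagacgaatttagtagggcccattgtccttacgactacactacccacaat

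WDHD1 and SOCS4: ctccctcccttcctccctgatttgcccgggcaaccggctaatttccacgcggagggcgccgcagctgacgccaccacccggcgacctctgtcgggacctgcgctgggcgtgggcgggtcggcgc

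The stretch between CDC45 and UFD1 is chr22:19479203-19479456, 254 bases with 48.4% G or C. The stretch between WDHD1 and SOCS4 is chr14:55027106-55027229, 124 bases with 72.6% G or C, written from the minus strand.

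The other genes of the pathway show where the 10 genes stand within DNA replication, and their counts are to be read beside the 13.5% of all genes tested that were called lower. The 16 licensing genes encode the MCM ring, factors that load it and regulators, among them GMNN (-1.32), an inhibitor of loading. All were listed and 11 were called lower, with a median log2 fold change of -2.12. The lowest were CDT1, the loader of MCM (-2.89, standard error 0.10), MCM5 (-2.72, standard error 0.06) and MCM7 (-2.71, standard error 0.05). The highest were subunits of the origin recognition complex, ORC4 (-0.36, standard error 0.09), ORC2 (-0.60, standard error 0.09) and ORC5 (-0.65, standard error 0.10), none of which met the fold threshold. The CDC45 to MCM7 ratio was 0.0771 and 0.0842 in shctrl and 0.0603 and 0.0681 in shUSP2-AS1, lower in both knockdown libraries.

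The 8 genes counted here as firing kinases encode kinases that fire origins, their cyclins and activators and the phosphatase CDC25A (-1.51). All 8 were called lower, with a median of -1.51. The lowest were the cyclin CCNA2 (-2.42), the CDC7 activator DBF4B (-2.32) and CDK2 (-2.03), and the highest were CDC7 itself (-1.13), the cyclin CCNE1 (-1.24) and the other CDC7 activator DBF4 (-1.42). Of 8 genes of firing scaffolds and DNA polymerase epsilon, 5 were called lower, with a median of -1.48. TICRR, which works with TOPBP1 (-2.23), and the polymerase subunits POLE2 (-1.98) and POLE (-1.86) were lowest. POLE4 (-0.43) and POLE3 (-0.99), the small histone-fold subunits, and RIF1 (-0.95), which counters CDC7, were highest and did not meet the threshold. With RLE scaling POLE3 (-1.10) and RIF1 (-1.07) met it, as they did with DESeq2, so that their calls depend on the scaling. Both alternatives took their size factors from the listed genes alone, all of which had passed the authors' comparison.

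Of 13 replisome partners of WDHD1 and TIMELESS, 12 were listed and all 12 were called lower, with a median of -1.73. CLSPN, the checkpoint mediator that binds TIMELESS (-2.44), the primase subunit PRIM1 (-2.06) and TIPIN (-1.98) were lowest, and the histone chaperone SSRP1 (-1.02), the primase subunit PRIM2 (-1.23) and the helicase DDX11 (-1.25) highest. SSRP1 lies just inside the threshold and was outside it with upper quartile scaling (-0.96), without shctrl replicate 2 (-0.999) and without shUSP2-AS1 replicate 1 (-0.95). CHTF8 was not among the listed genes.

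Genes of the other function of TOPBP1, the activation of ATR, had a median nearer to 0. Of 12 such genes 8 were listed and RAD1 (-1.30) alone was called lower, with a median of -0.85. This is 12.5% of the listed genes, near the 13.5% of all genes tested. RAD1 and RAD9A (-0.86) belong to the clamp that TOPBP1 binds and RHNO1 (-0.92) binds that clamp too, while RPA3 (-0.84), CHEK1 (-0.78) and ATRIP (-0.53) were highest. ATR, ETAA1, HUS1 and RAD17 were not among the listed genes. The TOPBP1 to ATRIP ratio was 4.54 and 4.61 in shctrl and 2.70 and 2.25 in shUSP2-AS1.

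Of the other RecQ helicases, BLM (-2.40, standard error 0.14) was called lower and WRN (-0.51, standard error 0.10) was not, and RECQL and RECQL5 were not among the listed genes. RECQL4 and BLM moved by a like factor, with a RECQL4 to BLM ratio of 3.70 and 4.08 in shctrl and 3.85 and 5.27 in shUSP2-AS1. Of 11 genes that take the CMG helicase off DNA at the end of replication, 9 were listed and 2 were called lower, with a median of -0.43. These were TRAIP (-2.34), itself a ubiquitin ligase, and LRR1 (-1.45), which gives another ubiquitin ligase its specificity for the helicase. CUL2 (-0.45), ELOC (-0.36), NPLOC4 (-0.21) and VCP (-0.18), which serve many other substrates, did not meet the threshold. No gene of these 7 lists was called higher, where 16.1% of all genes tested were.

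**Figure D4:**
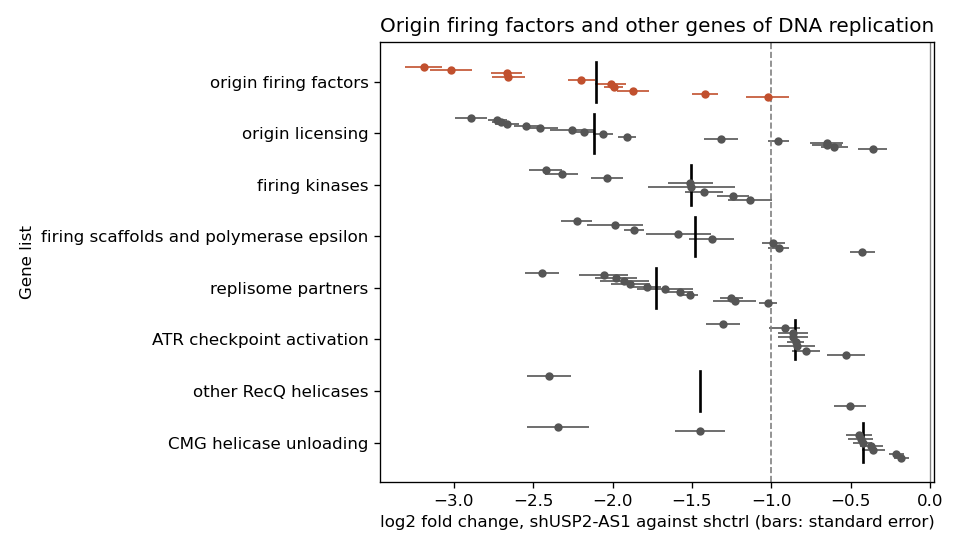
Log2 fold change, shUSP2-AS1 against shctrl, of each listed gene of the 8 replication lists with its standard error (2 libraries per group), the 10 origin firing factors in red. Black bars are list medians, from -2.12 for licensing to -0.43 for CMG unloading, and the dashed line is the threshold of -1.

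By the root mean square difference of centred log2 values over the 4 libraries, the genes nearest to CDC45 among 6091 with a mean of at least 100 were CIP2A (0.0232), WDR62 (0.0520), CDC20 (0.0870), CDT1 (0.0889) and WDHD1 (0.103). The log2 fold changes of these genes ran from -2.86 for CDC20 to -3.19 for WDHD1. CIP2A inhibits the phosphatase PP2A, WDR62 acts at the spindle pole and CDC20 activates the anaphase-promoting complex. Nearest to the mean of GINS1 to GINS4, among 6088 genes, were POLD1 (0.0109), MCM4 (0.0194), H2AX (0.0238), ANLN (0.0296) and RFC5 (0.0321). POLD1 is the catalytic subunit of DNA polymerase delta and RFC5 a subunit of the clamp loader, H2AX is a histone variant and ANLN acts in cytokinesis. With 4 libraries in 2 groups, this likeness is mainly a like fold change.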

How the data were processed

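RNA-seq was performed on 2 biological replicates each of A549 cells infected with shctrl or shUSP2-AS1 lentiviruses. Per the submitters' processing notes, the tools were HISAT2 (2.0.5), featureCounts (1.5.0-p3) and DESeq2 (1.20.0) with hg38. For each gene, the values the authors deposited are a signal, namely reads scaled by the size factor of the library, beside gene coordinates and lengths. The value columns are named scr_1, scr_2, sh216_1 and sh216_2. They were assigned to shctrl and shUSP2-AS1 from the heading of the table, which sets shUSP2-AS1 against shctrl, and to replicates by number, since the sources do not spell these names out. The columns of fold changes and p-values hold the comparison of the authors and were not used, except that the largest adjusted p (0.0499) shows how the table was filtered.

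Division of the values by what 1 read was worth (0.966 and 1.10 in shctrl, 1.05 and 0.880 in shUSP2-AS1) gave whole reads, within 0.01, for 100% of values. Replicates did not match within counting noise (chi-square per degree of freedom 3.75 in shctrl and 3.84 in shUSP2-AS1), and p-values measure only the spread between these libraries. Genes with a mean of at least 10 (6812 of 6828) were compared on log2(value + 1) with limma (3.58.1, R 4.3.3), with a trend, and adjusted by Benjamini-Hochberg over all genes tested. This scale understates the change of low genes, and on a table already filtered on the same contrast the adjusted p-values are too small. Genes were called at an adjusted p below 0.05 where log2 values differed by at least 1 in either direction. A permutation of 2 against 2 libraries cannot reach 0.05, so ratios and levels of single genes are given without a permutation test.

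The genes and lists were chosen with earlier results of these data known. The genes named are the 10 factors, USP2-AS1 and the 3 lowest and 3 highest log2 fold changes of each other pathway list. To these were added genes that start within 1 kb of a factor on the opposite strand. The 5 genes nearest in profile to CDC45 and to the GINS mean were named too. GMNN and CDC25A were named to say what their lists hold. Promoter sequences are from RefSeq (GRCh38). Alternatives were TMM, RLE and upper quartile scaling, edgeR (4.0.16) and DESeq2 (1.42.0) on the recovered reads, a pseudocount of 0.1, other filters and thresholds, a replicate block and leaving out each library. The alternative scalings, edgeR and DESeq2 used only listed genes, all of which had passed the authors' comparison. Lengths of canonical transcripts in GENCODE release 44 were added after the data were examined. The fits were tested on simulated data in which most genes were unchanged. The listed genes had all passed a comparison, so that test does not show how the calls fare on them.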

Additional observations from a re-analysis of the deposited data

How the results depend on the processing

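Of 140 log2 fold changes of the 10 origin firing factors under 14 alternatives, 137 kept their direction and their side of the call and none reversed. The other 3 were of GINS3, at -0.96 with upper quartile scaling, -0.93 without shUSP2-AS1 replicate 1, and not past a test against a log2 fold change of 1. The cause was not tested. Called lower were 9 or 10 of the 10 genes throughout. RLE scaling moved the median of all genes by -0.12, to 0.07, and called 1143 genes lower and 930 higher (DESeq2 1140 and 942), so that 55.1% of calls were lower in place of 45.6%. With either, scaled on the listed genes alone, 7 of 8 scaffold and polymerase epsilon genes were called lower, POLE3 and RIF1 added. The ATR list had 2 genes called lower with RLE scaling, 2 with DESeq2 and 1 or 2 with a library left out. Tested against a log2 fold change of 1, 5 of 8 firing kinases, 523 genes lower and 541 higher were called. With no fold threshold, 3362 genes were called lower and 3449 higher, among them 8 scaffold and polymerase epsilon genes, 8 ATR genes, 2 RecQ helicases and 9 CMG unloading genes, since the table holds genes that had already passed a test.

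With a library left out, the ranges called lower were 9 to 10 origin firing factors, 11 to 12 licensing genes, 8 kinases throughout, 5 to 6 scaffold genes, 11 to 12 replisome partners, 1 RecQ helicase, 2 unloading genes, 882 to 955 of all genes, and 1083 to 1101 of all genes were called higher. Replicate differences of the groups correlated at -0.04 across genes, so no difference shared by libraries of equal number was seen. Whether such libraries were made together is not given in the sources used here. With a replicate block 922 genes were called lower, 1098 higher and 10 of the 10 factors lower. With canonical transcript length, the mean ratio of the highest to the lowest level per kilobase among CDC45 and the GINS genes was 3.59 in place of 6.67 in shctrl and 2.04 in place of 2.64 in shUSP2-AS1. The 60 reads of CDC45 in a knockdown library limit its precision, and with 2 libraries per group no sample could be judged an outlier.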
